A study of Mus musculus and Homo sapiens
Mus musculus with 14 samples.

Results

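The 8 genes described here make, package, take up or break down the inhibitory transmitters GABA and glycine: Gad1, Gad2, Slc32a1, Slc6a11, Slc6a13, Slc6a9, Slc6a5 and Abat. They were chosen by symbol, and all 8 were found both among the 24460 genes of the table of retinal layers and among the 18415 genes of the table of amacrine cells.

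Light-Seq reverse transcribes RNA with random primers inside fixed tissue and links a DNA barcode to the cDNA of chosen cells by light, so that the sequenced UMIs (unique molecular identifiers, 1 per captured cDNA) can be assigned to a region. In 4 sections, barcodes were written into the outer nuclear layer (ONL, rod and cone cell bodies), the bipolar cell layer (BCL, which also holds Müller glia and horizontal cells) and the ganglion cell layer (GCL, ganglion cells and displaced amacrine cells), giving 12 libraries. In 5 further sections, amacrine cells stained for tyrosine hydroxylase (TH+, the dopaminergic type) and amacrine cells without the stain (TH-) were barcoded, giving 10 libraries. All retinas were from wild-type CD1 IGS mice in the third postnatal week, with no treatment. The 4 layer sections were cut from the same animal, and the amacrine sections are described as technical replicates, so p-values measure the spread between sections rather than between animals. A TH+ library pooled only a handful of cell bodies, so the TH+ values rest on few UMIs.

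GABA is made from glutamate by 2 enzymes, GAD67 (Gad1) and GAD65 (Gad2), and is broken down by GABA transaminase (Abat). The vesicular carrier VGAT (Slc32a1) loads GABA and glycine into synaptic vesicles, and carriers of the SLC6 family clear the transmitters from the extracellular space. In the retina most amacrine cells release one of the pair, horizontal cells and displaced amacrine cells are mainly GABAergic, and glycinergic amacrine cells are recognised by the glycine carrier GlyT1 (Slc6a9). Among the carriers, Slc32a1, Slc6a9 and Slc6a5 (GlyT2) were set here as neuronal, and the GABA carriers GAT3 (Slc6a11) and GAT2 (Slc6a13) as glial. That division follows their usual assignment. In the retina GAT3 has also been placed in amacrine cells, and in the brain GlyT1 is largely glial.

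On the GRCm39 assembly the genes lie on 5 chromosomes, all on the plus strand. Gad1 spans chr2:70383416-70432372, Gad2 chr2:22511862-22583886 and Slc32a1 chr2:158452605-158464883. Slc6a11 (chr6:114108200-114226913) and Slc6a13 (chr6:121277186-121316121) share chromosome 6. The others are Slc6a9 at chr4:117691703-117732395, Slc6a5 at chr7:49559894-49613604 and Abat at chr16:8331233-8439996. The upstream sequences of the 3 genes that GABAergic neurons need for synthesis and packaging are shown with that of Slc6a11, because the first 3 were ordered alike across the layers and Slc6a11 was not. Each is the 250 bases before the RefSeq start, 5′ to 3′, on the plus strand of the GRCm38.p6 build: chr2:70561879-70562128 for Gad1, chr2:22622077-22622326 for Gad2, chr2:158610508-158610757 for Slc32a1 and chr6:114130991-114131240 for Slc6a11. Capitals mark a match to TATAAA on either strand.

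Gad1: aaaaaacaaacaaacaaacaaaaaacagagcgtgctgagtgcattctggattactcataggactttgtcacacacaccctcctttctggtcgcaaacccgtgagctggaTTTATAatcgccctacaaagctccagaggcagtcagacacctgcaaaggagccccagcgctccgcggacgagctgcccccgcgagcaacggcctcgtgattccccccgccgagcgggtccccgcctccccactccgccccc
Gad2: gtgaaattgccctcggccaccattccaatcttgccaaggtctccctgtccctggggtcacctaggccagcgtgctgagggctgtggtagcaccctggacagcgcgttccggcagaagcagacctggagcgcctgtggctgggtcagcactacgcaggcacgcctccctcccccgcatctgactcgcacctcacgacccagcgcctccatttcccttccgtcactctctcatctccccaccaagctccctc
Slc32a1: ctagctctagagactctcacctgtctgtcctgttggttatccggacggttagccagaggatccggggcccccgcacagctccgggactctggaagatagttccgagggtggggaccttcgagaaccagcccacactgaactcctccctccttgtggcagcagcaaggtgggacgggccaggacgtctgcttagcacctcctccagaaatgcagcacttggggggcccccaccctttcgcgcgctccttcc
Slc6a11: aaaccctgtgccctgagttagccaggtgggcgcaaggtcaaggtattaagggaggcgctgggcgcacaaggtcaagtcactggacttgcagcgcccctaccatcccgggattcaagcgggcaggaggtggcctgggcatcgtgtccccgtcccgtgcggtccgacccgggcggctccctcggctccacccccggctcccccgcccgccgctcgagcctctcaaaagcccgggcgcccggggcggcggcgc

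The search covered 3 motifs, read on both strands. One was TATAAA, which core promoters of some regulated genes carry. Others were the E-box in the form CAGCTG, which proneural factors bind, and the cyclic AMP response element TGACGTCA. No matches overlapped in these windows. The Gad1 window held a single match, TATAAA read on the minus strand, 135 bases before the start, and the other 3 windows held none. Among 32851 promoters of the same length, 12.4% held TATAAA, 13% held CAGCTG and 1.55% held TGACGTCA. The G and C content was 58% for Gad1, 64% for Gad2, 62.4% for Slc32a1 and 71.2% for Slc6a11, beside a median of 52.4% over all promoters. These are descriptions of the letters only. An upstream sequence was matched for 7 of the 8 genes, the exception being Abat.

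Library totals were 310228 to 801105 UMIs in the ONL, 193869 to 208437 in the BCL, 585655 to 785013 in the GCL, 134394 to 200344 in TH- and 30317 to 87449 in TH+ cells. Levels are given as UMIs per 1000000 of the library's total (CPM). A count of 0 allows up to 3 UMIs, which is 3.74 to 9.67 CPM in the ONL, 14.4 to 15.5 in the BCL, 3.82 to 5.12 in the GCL, 15.0 to 22.3 in TH- and 34.3 to 99.0 in TH+ cells. These floors cover counting error only. The libraries carried the markers of their labels: the summed level of 8 rod genes was 56136 to 70126 CPM in the ONL, that of 7 bipolar genes 6514 to 7360 in the BCL and that of 10 ganglion cell genes 6838 to 7655 in the GCL. Rod RNA was also present elsewhere, at 11694 to 19884 CPM in the BCL and 4330 to 7514 in the GCL. Th itself was at 303 to 660 CPM in TH+ and 11.6 to 49.9 in TH- libraries. Because each library pools the RNA of several cells or more, fewer cells of a type and less RNA per cell cannot be told apart.

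Gad1, which makes most of the brain's GABA, was the higher of the synthesis genes per kilobase in every group. In sections 1 to 4 it stood at 386, 493, 406 and 471 CPM in the GCL. It stood at 82.5, 106, 81.3 and 119 CPM in the BCL, and at 121, 44.3, 45.7 and 106 CPM in the ONL. Every GCL section was above every section of the other layers, whose ranges overlapped. The GCL was 5.05-fold above the BCL (log2 fold change of BCL against GCL -2.34 ± 0.20, SE, edgeR adjusted p = 1.97e-14) and 4.89-fold above the ONL (-2.29 ± 0.16, adjusted p = 5.10e-18). ONL and BCL did not pass the test (0.04 ± 0.26, adjusted p = 0.921). In amacrine sections 1 to 5 Gad1 was at 1131, 793, 729, 1168 and 1551 CPM in TH- cells and at 959.6, 698, 635, 670.3 and 792 CPM in TH+ cells. TH- was the higher of the pair in all 5 sections, although the ranges overlapped. The difference missed the threshold (-0.53 ± 0.19, adjusted p = 0.261) and passed it with the section as a replicate block (-0.46, adjusted p = 0.0242) and with no low-count filter (-0.69, adjusted p = 0.0421). The order of the means was TH- (1074 ± 331, SD, n = 5), TH+ (751 ± 130, n = 5), GCL (439 ± 51.3, n = 4), BCL (97.0 ± 18.2, n = 4) and ONL (79.3 ± 40.2, n = 4). Only TH- with TH+ and BCL with ONL overlapped among neighbours. Layers and amacrine cells come from separate experiments, so levels across that line are set side by side without a test.

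Gad2, the GAD form tied to synaptic terminals, followed the same order of groups. Its 4 GCL sections were within 140.1 to 147 CPM. The BCL sections held 46.4, 19.2, 20.3 and 34.6 CPM, and the ONL sections 33.7, 13.8, 9.13 and 32.2 CPM. The GCL did not overlap with the other layers, which overlapped with each other. It was 5.33-fold above the BCL (BCL against GCL -2.41 ± 0.27, adjusted p = 6.45e-11) and 5.64-fold above the ONL (ONL against GCL -2.50 ± 0.21, adjusted p = 1.54e-15). TH- sections held 355, 255, 238, 195 and 429.9 CPM, and TH+ sections 204, 332, 23.5, 454 and 264 CPM. The lowest TH+ value was a single UMI in section 3, and the groups overlapped almost wholly (-0.13 ± 0.28, adjusted p = 0.948). Per kilobase of gene length, Gad1 was at 57.5 ± 6.71 and Gad2 at 24.4 ± 0.59 CPM per kb in the GCL, and at 141 ± 43.3 and 50.1 ± 16.3 CPM per kb in TH- cells.

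Slc32a1, the vesicular carrier used for both transmitters, was at 89.2, 102, 93.8 and 88.8 CPM in GCL sections 1 to 4. It was at 36.1, 14.4, 15.2 and 44.5 CPM in the BCL, where the lowest 2 values are 3 UMIs each. ONL sections held 30.0, 13.8, 16.0 and 35.5 CPM. Again the GCL lay above both other layers without overlap, by 3.79-fold over the BCL (BCL against GCL -1.92 ± 0.29, adjusted p = 2.35e-07) and 3.60-fold over the ONL (ONL against GCL -1.85 ± 0.22, adjusted p = 2.35e-10). TH- sections ranged from 243 to 472 CPM with a median of 294, and TH+ sections from 194 to 429 with a median of 306. The means, 317 ± 91.2 and 313 ± 97.4 CPM, differed by far less than the spread (-0.11 ± 0.23, adjusted p = 0.948). Slc32a1 shares 302 exon bases with Gm14204 and 697 with Gm14205, both on the opposite strand. The counting was run at its defaults, which use no strand and drop a read that falls on exons of 2 genes, so RNA of such partners cannot be told apart by strand. Gm14204 was at 29.8 to 84.6 CPM in TH- and 23.5 to 99.0 in TH+ libraries, with a mean of 7.85 in the GCL, and Gm14205 had no UMI.

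**Figure D1:**
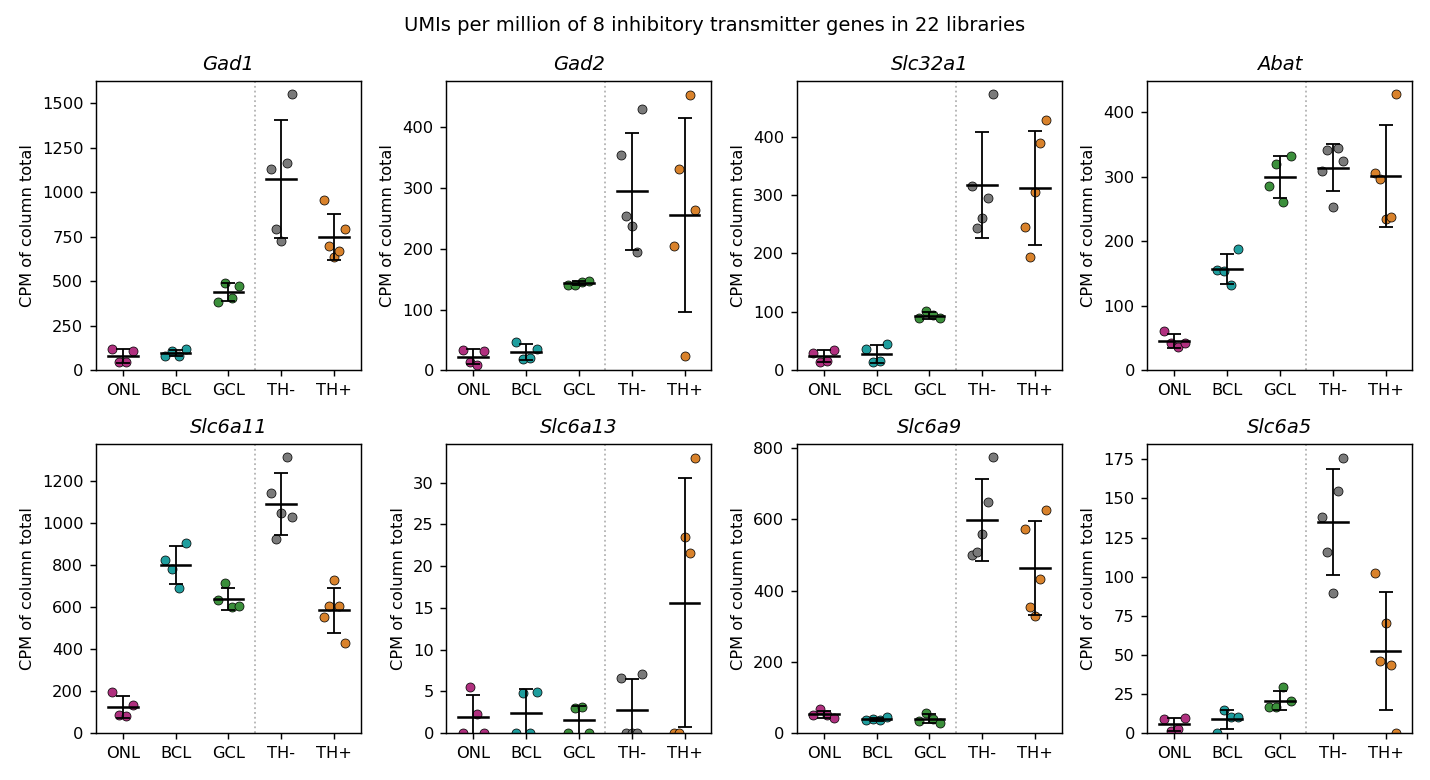
CPM (y axis, from 0, a separate scale in each panel) of the 8 genes in each library, by group (x axis). Points are sections, lines are means and bars are 1 SD, cut at 0; the dotted line separates the layer experiment (4 sections) from the amacrine experiment (5 sections). Gad1, Gad2 and Slc32a1 stand higher in the GCL than in the other layers, Slc6a11 is high in both BCL and GCL, and every gene but Slc6a13 has its highest mean in TH- cells.

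Abat, the mitochondrial enzyme that starts GABA breakdown in neurons and glia, showed a stepped order across the layers. It was at 285, 319, 261 and 333 CPM in the GCL, at 155, 154, 132 and 188 CPM in the BCL, and at 61.2, 41.5, 36.5 and 41.9 CPM in the ONL. No 2 layers overlapped, and all 3 comparisons passed. GCL was 2.14-fold above BCL (BCL against GCL -1.09 ± 0.15, adjusted p = 3.93e-08), BCL was 2.63-fold above ONL (ONL against BCL -1.39 ± 0.21, adjusted p = 1.40e-07), and GCL was 5.61-fold above ONL (-2.49 ± 0.15, adjusted p = 1.20e-20). TH- and TH+ cells stood at 314 ± 37.2 and 301 ± 78.6 CPM, close to the GCL mean of 299.7 ± 32.5, and TH+ did not pass against TH- (-0.11 ± 0.21, adjusted p = 0.948). Gad1 and Abat are of similar length (7639 and 7748 bases), and there were 3.41 ± 0.92 Gad1 UMIs per Abat UMI in TH- cells, 2.57 ± 0.49 in TH+ cells, 1.71 ± 0.68 in the ONL, 1.47 ± 0.10 in the GCL and 0.62 ± 0.06 in the BCL.

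Slc6a11, the GABA carrier GAT3, was the one gene of the 8 whose mean was higher in the BCL than in the GCL beyond the few UMIs of Slc6a13. BCL sections held 825, 782, 691 and 905 CPM. GCL sections held 634, 715, 599 and 606 CPM, which overlap with the BCL. ONL sections were far lower, at 195, 87.1, 82.2 and 135 CPM. BCL and GCL did not pass the test (0.16 ± 0.13, adjusted p = 0.391), whereas the ONL was 4.95-fold below the BCL (-2.31 ± 0.16, adjusted p = 8.35e-18) and 4.44-fold below the GCL (-2.15 ± 0.15, adjusted p = 1.97e-18). The 8 markers of Müller glia summed to 7348 to 8276 CPM in the BCL and to 1737 to 2062 in the GCL, and 7 of the 8 were higher in the BCL by the test. The 3 astrocyte markers, glia of the nerve fibre side, were at 208 to 292 CPM in the GCL and 15.5 to 48.0 in the BCL. The amacrine list (Pax6, Tfap2a, Tfap2b, Tfap2c and Meis2) was at 853 to 913 CPM in the GCL and 518 to 658 in the BCL. How far each cell type gave the Slc6a11 signal was not tested.

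Among amacrine cells Slc6a11 was the single gene of the 8 that passed. TH- sections held 1144, 926, 1049, 1318 and 1029 CPM, and TH+ sections held 551, 606, 729, 605 and 429 CPM. All 5 TH- values lay above all 5 TH+ values. TH+ was 1.86-fold lower (-0.89 ± 0.17, adjusted p = 0.00114), and this passed under every alternative tried, DESeq2 and the section as a replicate block included. In the same libraries the Müller list summed to 4668 to 7218 CPM in TH- and 3308 to 4654 in TH+, without overlap, although 0 of its 8 genes passed the edgeR test, with Glul, a Müller gene of the pathway list below, just short of the threshold (-0.62 ± 0.16, adjusted p = 0.0523). With the section as a replicate block 2 of the 8 passed, both lower in TH+: Glul (-0.61 ± 0.10, adjusted p = 4.60e-08) and Clu (-0.48 ± 0.14, adjusted p = 0.0218). The rod list summed to 7880 to 20495 CPM in TH- and 13768 to 35225 in TH+ libraries. Of its 8 genes, 3 were called higher in TH+. That count was 7 with the block, and 1 with DESeq2 and without section 3, 4 or 5. The part of either list in the Slc6a11 difference was not tested.

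Slc6a13, the GABA carrier GAT2 best known from meninges and other non-neural cells, was barely captured. The 12 layer libraries held 11 UMIs in all, 5 from ONL, 2 from BCL and 4 from GCL sections, and the 10 amacrine libraries held 2 in TH- and 3 in TH+ cells. One ONL library reached 4 UMIs, and the other 21 libraries had 2 or fewer. The gene did not pass the low-count filter and was not tested, unlike the other 7. The glial sum below is therefore Slc6a11 almost alone. The 4 fibroblast markers, from a cell type where Slc6a13 is common, summed to 19.8 to 82.5 CPM in BCL, 11.5 to 36.0 in GCL and 4.57 to 9.68 in ONL libraries, and to 0 to 25.0 in TH- and 0 to 22.9 in TH+ libraries. Most of the BCL sum was Col1a2 (55.0 ± 26.1 CPM), while Dcn was at 0 in every group but the GCL and Lum in every group but the ONL.

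Slc6a9, the glycine carrier GlyT1, was at least 329 CPM in every amacrine library and at most 66.4 CPM in every layer library. TH- sections held 499.7, 509, 558, 649 and 775 CPM, and TH+ sections 572, 354, 329, 432 and 627 CPM. The groups overlapped, and TH+ did not pass (-0.42 ± 0.20, adjusted p = 0.506). In the layers it was at 33.1, 57.0, 40.0 and 29.0 CPM in the GCL, at 36.1, 38.4, 35.6 and 44.5 CPM in the BCL, and at 49.9, 66.4, 50.2 and 41.9 CPM in the ONL. These ranges overlapped throughout, and BCL did not pass against GCL (-0.21 ± 0.30, adjusted p = 0.648).

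The ONL was called above both other layers for Slc6a9, by 1.75-fold over the BCL (0.81 ± 0.29, adjusted p = 0.0238) and by 1.52-fold over the GCL (0.60 ± 0.21, adjusted p = 0.0117). Both calls were fragile. Against the BCL the call was lost with DESeq2 (adjusted p = 0.146), with its size factors in edgeR (0.0503) and without section 1 (0.0526), 2 (0.168) or 3 (0.0528). Against the GCL it was lost with DESeq2 (adjusted p = 0.127), without the low-count filter (0.0516) and without section 1 (0.0572). Slc6a9 shares 1429 exon bases with Ccdc24, 551 with B4galt2 and 511 with Gm17114, all on the opposite strand. Counting used no strand and dropped a read on exons of 2 genes, so reads there are lost to both genes rather than added to Slc6a9. Ccdc24 was itself at 22.6 to 30.0 CPM in the ONL, at 0 to 14.4 in the BCL and at 1.27 to 4.50 in the GCL, 6.45-fold higher in the ONL than in the BCL (2.69 ± 0.58, adjusted p = 1.30e-04). In TH- libraries Ccdc24 was at 0 to 14.9 CPM. The effect of the overlap on the Slc6a9 counts was not tested.

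Slc6a5, the glycine carrier GlyT2 that marks glycinergic terminals in spinal cord and brainstem, had the lowest level per kilobase of the 7 tested genes in each group. TH- sections held 138, 116, 89.3, 155 and 176 CPM. TH+ sections held 102, 45.7, 70.6, 43.2 and 0 CPM, on 5 UMIs or fewer each. TH- was higher in every section, yet the highest TH+ value overlapped with TH- and the difference did not pass (-1.29 ± 0.40, adjusted p = 0.122). In the layers it was at 16.6, 16.5, 29.2 and 20.5 CPM in the GCL, on 11 to 19 UMIs. BCL sections held 0, 14.4, 10.2 and 9.89 CPM and ONL sections 8.74, 1.38, 2.28 and 9.67 CPM, on 0 to 3 and 1 to 7 UMIs. The GCL lay above both without overlap. It passed against the ONL (ONL against GCL -1.74 ± 0.44, adjusted p = 6.19e-04, and -2.45 without section 1) and, narrowly, against the BCL (BCL against GCL -1.37 ± 0.55, adjusted p = 0.0445). The latter call was lost with DESeq2 (adjusted p = 0.148), with its size factors in edgeR (0.0505) and without section 1 (0.134), 3 (0.151) or 4 (0.0874).

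Counted together, 5 of the 7 tested genes were higher in the GCL than in the BCL, where 20.4% of all 11324 tested genes were, and 0 were higher in the BCL, where 16.1% were (0 also at an unadjusted p under 0.05 in edgeR, and 0 with DESeq2). Against the ONL, 6 of 7 were higher in the GCL beside 32.2% of all genes, and 1, Slc6a9, was higher in the ONL beside 29.3%. Between ONL and BCL, 2 of 7 (Slc6a11 and Abat) were higher in the BCL beside 18.2% of all genes, and 1, Slc6a9, in the ONL beside 18.5%. The median log2 fold change of the 7 genes was -1.37 for BCL against GCL, -2.15 for ONL against GCL and -0.08 for ONL against BCL, where the medians over all genes were -0.02, 0.00 and 0.09. In TH+ against TH- cells, 1 of 7 was lower in TH+ beside 0.083% of 6021 tested genes, and 0 were higher beside 0.747% (0 also at an unadjusted p under 0.05, and 0 with DESeq2). At an unadjusted p under 0.05, 4 of the 7 were lower in TH+ cells. The median there was -0.42, and -0.05 over all genes. A replicate block of section raised the calls over all genes from 50 to 148 and those among the 7 genes from 1 to 2, by adding Gad1.

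**Figure D2:**
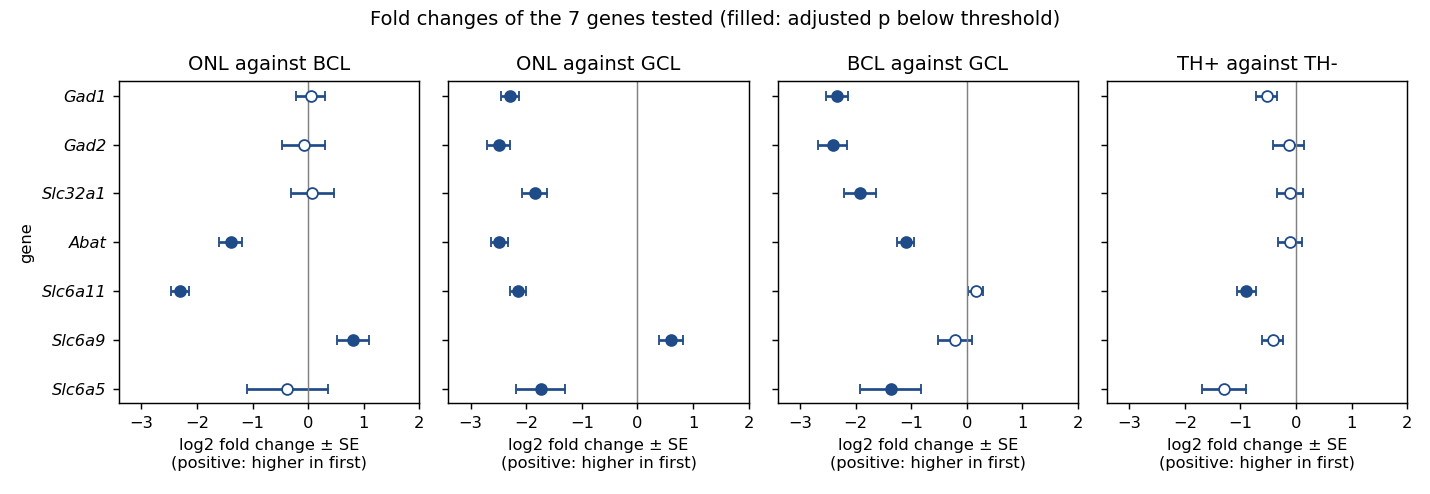
Log2 fold change ± SE (x axis) of the 7 tested genes (y axis) in 4 comparisons, from the edgeR fits; positive values are higher in the group named first, and filled points passed the adjusted threshold of 0.05. Gad1, Gad2 and Slc32a1 sit near 0 between ONL and BCL and at -1.85 or lower in both comparisons with the GCL, and Slc6a11 is the filled point of the TH+ panel.

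The 4 ONL sections were not alike for these genes. Sections 1 and 4 were above sections 2 and 3 for Gad1, Gad2, Slc32a1, Slc6a11 and Slc6a5, and for Gad1 the values of 121 and 106 CPM stood against 44.3 and 45.7. Slc6a9 had its highest value in section 2 and its lowest in section 4. The amacrine gene Tfap2b split the same way, at 98.6, 38.7, 29.7 and 96.7 CPM in sections 1 to 4, while Tfap2a did not, at 39.9, 18.0, 32.0 and 25.8 CPM.

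Setting neuronal against glial carriers, the glial sum stood above the neuronal one in all 12 layer libraries. Neuronal carriers (Slc32a1, Slc6a9 and Slc6a5) summed to 74.8 ± 16.7 CPM in the BCL and glial carriers (Slc6a11 and Slc6a13) to 803 ± 90.7. In GCL sections the sums were 154 ± 18.4 and 640.2 ± 53.7 CPM. TH- cells had 1050.1 ± 226 and 1096 ± 147 CPM, and TH+ cells 828 ± 181 and 599.8 ± 107. In the ONL both were low, at 81.4 ± 9.14 and 127 ± 50.5 CPM. The neuronal share of the carrier UMIs was 8.46% ± 0.90 in the BCL (SD, n = 4), 19.4% ± 1.46 in the GCL, 40.5% ± 6.96 in the ONL, 48.7% ± 5.28 in TH- cells and 57.6% ± 8.91 in TH+ cells (n = 5). No 2 layers overlapped in this share, and TH- overlapped with TH+, although the TH+ share was the higher of the pair in all 5 sections. Per gene length the shares were 10.3%, 25.7%, 44.4%, 53.0% and 62.7% in the same order. No test was run on these shares.

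Leaving Slc6a9 out of the neuronal sum moved the mean share by more than 1 SD of the sections in every group. It was then 18.4% in the ONL, 4.23% in the BCL, 15.2% in the GCL, 29.0% in TH- and 37.9% in TH+ cells, and the ONL range then overlapped with the GCL. The BCL was the lowest of the 5 groups with and without Slc6a9.

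**Figure D3:**
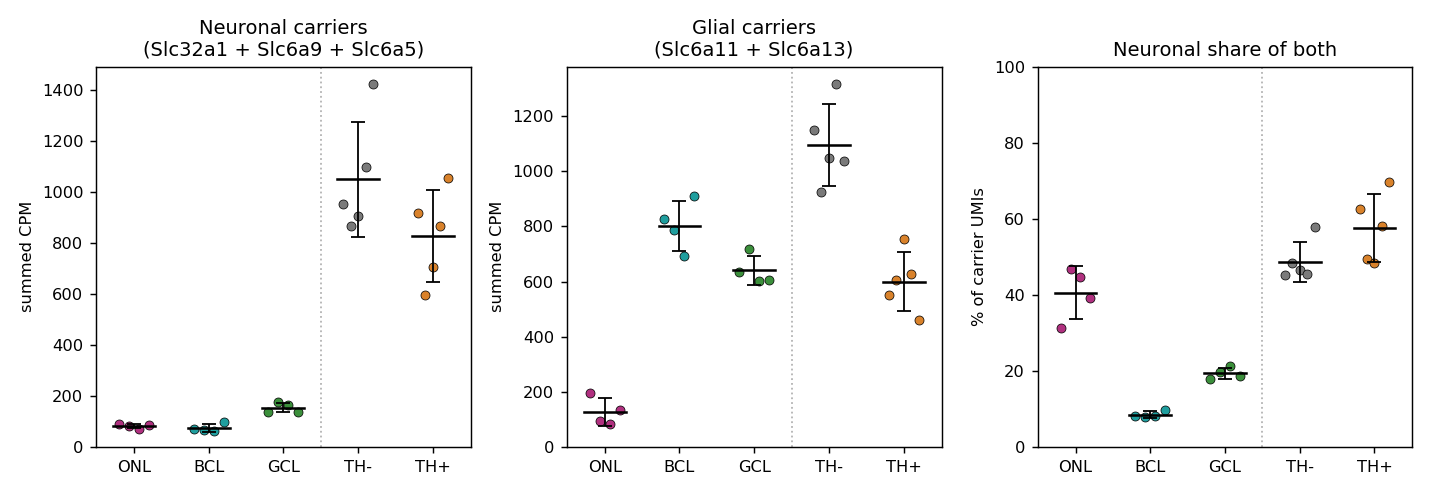
Summed CPM of the neuronal carriers (left), of the glial carriers (middle) and the neuronal share of their UMIs in percent (right) for each library, by group; points are sections, lines means and bars 1 SD. The neuronal sum is at least 595 in all 10 amacrine libraries and at most 175 in all layer libraries, while the glial sum is at least 602 in the GCL and BCL.

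Per kilobase of gene length, which puts genes of different length on a common scale, Slc6a11 had the highest mean in every group. The lengths can include exon bases shared with other genes, where reads were dropped. Slc6a9 (1429, 551 and 511 shared bases), Slc32a1 (302 and 697) and Gad1 (99) may thus be understated beside Slc6a11, which shares none. The shares per gene length above have the same limit. Slc6a11 stood at 216 CPM per kb in TH- cells, 159 in the BCL, 126 in the GCL, 116 in TH+ cells and 24.7 in the ONL. In TH+ cells the lead was within the spread, at 116 ± 21.5 beside 112 ± 34.8 CPM per kb for Slc32a1. Slc6a11 was not the highest in 3 of the 5 TH+ sections, where the highest was Gad1 in section 1 (126 against 109) and Slc32a1 in sections 4 (139 against 119.9) and 5 (153 against 84.9). In TH- cells it was followed by Gad1 (141), Slc6a9 (116), Slc32a1 (113) and Gad2 (50.1). In the GCL Gad1 (57.5) came next, ahead of Abat (38.7), Slc32a1 (33.4) and Gad2 (24.4), with Slc6a9 at 7.73 and Slc6a5 at 2.87. As a percent of the 8 genes on this scale, Slc6a11 made up 73.6 ± 1.87 in the BCL, 43.4 ± 1.64 in the GCL, 37.4 ± 3.90 in the ONL, 31.5 ± 4.77 in TH- and 23.2 ± 6.43 in TH+ cells. The GlyT1 gene Slc6a9 made up 2.63% ± 0.64 in the GCL and 16.7% ± 1.75 in TH- cells.

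**Figure D4:**
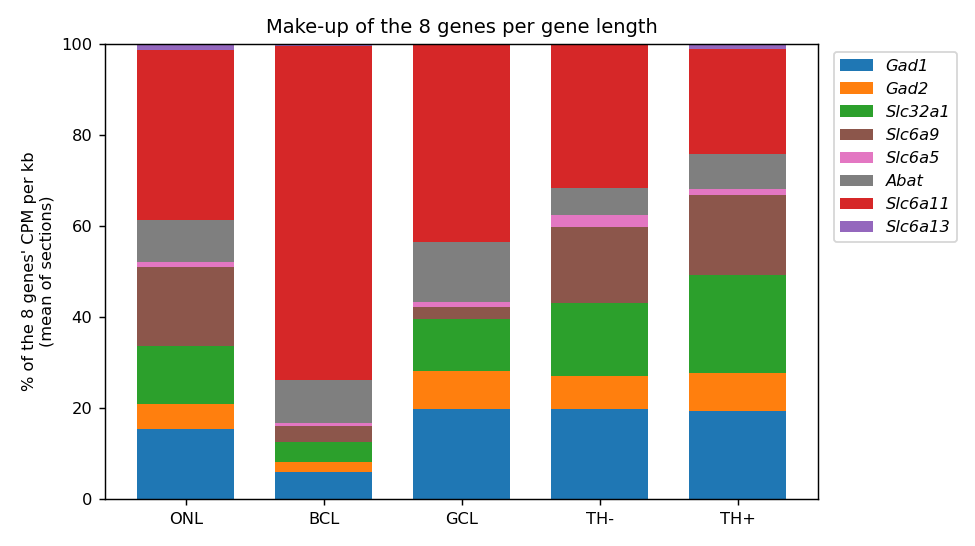
Make-up of the 8 genes by group, as the mean percent of their summed CPM per kilobase (y axis) over 4 layer or 5 amacrine sections (x axis). Slc6a11 takes 73.6% of the BCL bar, and Slc6a9 a visibly thinner band in the GCL (2.63%) than in TH- cells (16.7%).

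Gad1 stood highest relative to Slc6a9 in the GCL. It gave 11.7 ± 3.28 UMIs per Slc6a9 UMI there (range 8.66 to 16.2), compared with 2.50 ± 0.25 in the BCL, 1.63 ± 0.98 in the ONL, 1.79 ± 0.37 in TH- and 1.68 ± 0.29 in TH+ cells. All 4 GCL sections lay above the other 18 libraries, whose highest ratio was 2.75. The BCL ratios rest on 16 to 24 Gad1 and 7 to 9 Slc6a9 UMIs per library, and their SD is only the spread of the sections. The other glycine carrier, Slc6a5, was called higher in the GCL than in both other layers, as Gad1 was, although narrowly against the BCL. The GCL is where displaced amacrine cells lie, and its starburst markers (Chat, Slc18a3 and Slc5a7) summed to 93.0 to 126 CPM, beside 14.4 to 29.7 in the BCL and 28.9 to 204 in TH- libraries.

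**Figure D5:**
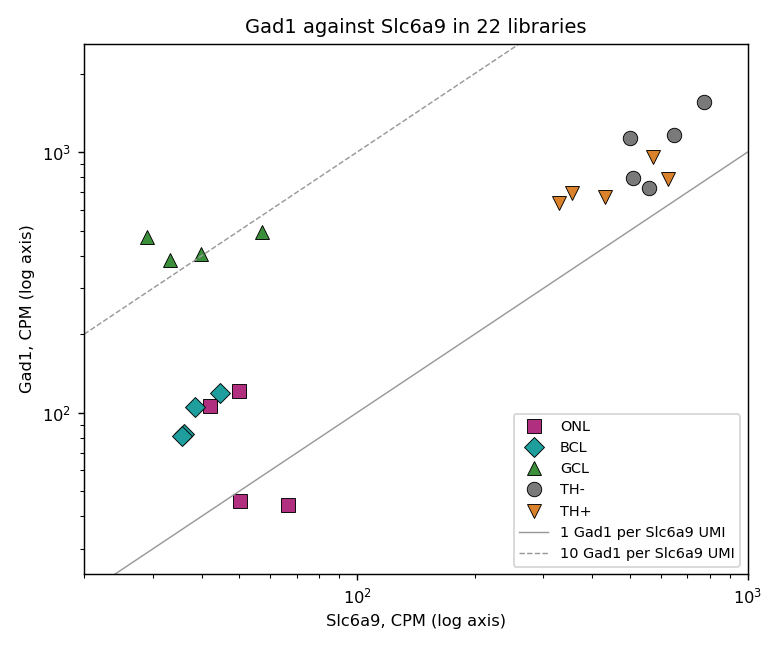
Gad1 (y axis) against Slc6a9 (x axis), both in CPM on log axes, for 22 libraries; the solid and dashed lines mark 1 and 10 Gad1 UMIs per Slc6a9 UMI. The 4 GCL triangles lie along the upper line and the amacrine libraries sit at the upper right with ratios of 1.26 to 2.26.

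Beyond the 8 genes, 21 others of GABA and glycine handling were looked at as a list, of which 16 were tested in the layers and 11 in amacrine cells. Between BCL and GCL, 7 of the 16 were higher in the former, beside 16.1% of all tested genes, and 3 in the latter, beside 20.4%. Between ONL and GCL the counts were 4 and 7, beside 29.3% and 32.2% of all genes, and between ONL and BCL they were 3 and 6, beside 18.5% and 18.2%. The 3 genes higher in the GCL than in the BCL, the 4 higher in the ONL than in the GCL and the 3 higher in the ONL than in the BCL are thus close to the share over all genes. Of the 11, 0 passed in either direction between TH+ and TH- cells with edgeR. At an unadjusted p under 0.05 the counts there were 1 lower and 0 higher in TH+, and DESeq2 called 0. The replicate block of section called 1, lower in TH+. Their median log2 fold change was 0.58 for BCL against GCL, -0.14 for ONL against GCL and -0.58 for ONL against BCL. The first was opposite in sign to the median of the 7 genes and the others had the same sign.

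Among the 7 tested genes of GABA supply and breakdown, 3 had higher levels in the BCL and 3 had lower levels there than in the GCL, where the shares over all genes were 16.1% and 20.4%. Glul, the glutamine synthetase of Müller glia, was at 4577 ± 247 CPM in the BCL and 1004 ± 73.8 in the GCL (2.02 ± 0.13, adjusted p = 1.81e-19). Aldh5a1, which completes GABA breakdown after Abat, was higher in the BCL than in the GCL (0.85 ± 0.27, adjusted p = 0.00876), a call lost without section 1 (adjusted p = 0.337), whereas Abat was higher in the GCL.

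The carriers of related substrates were ordered in different ways across the layers. Slc6a6, which carries taurine, was at 3745 ± 371 CPM in the ONL, at 1844 ± 118 in the BCL and at 541 ± 84.0 in the GCL. It passed in all 3 layer comparisons. The glutamine carrier Slc38a3 was at 593 ± 41.5, 451 ± 77.9 and 54.7 ± 15.1 CPM in the same order. Slc6a8, which carries creatine, was instead lowest in the ONL, at 43.5 ± 9.59 CPM beside 159 ± 30.4 in the BCL and 106 ± 14.8 in the GCL (ONL against BCL -1.47 ± 0.21, adjusted p = 3.70e-08). The glutamine carrier Slc38a1 was also lowest there, at 258 ± 49.9 CPM beside 492 ± 88.7 and 365 ± 15.6, with ONL against BCL at -0.55 ± 0.14 (adjusted p = 8.76e-04). Of the 7 tested genes of glycine supply and breakdown, 3 passed between BCL and GCL, all higher in the former, beside 16.1% of all genes. Gldc, of the glycine cleavage system, was at 49.8 ± 16.3 CPM in the BCL and 4.17 ± 3.46 in the GCL (3.36 ± 0.45, adjusted p = 1.60e-08), on 11 UMIs in all GCL sections and at 4.24 without section 3, and Shmt2, which makes glycine from serine, at 79.0 ± 27.9 and 25.1 ± 5.70 (1.48 ± 0.28, adjusted p = 1.64e-05). Slc6a9 itself did not pass in that comparison. In TH- cells Gldc was at 34.1 ± 16.1 and Shmt2 at 32.4 ± 9.22 CPM, where Slc6a9 was at 598 ± 115.

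The genes most like each of 3 members were taken over the 22 libraries, by Pearson's r of log2 CPM among 6010 genes tested in both tables. The libraries share animals, sections and the split between 2 experiments, so r is a description. Among the 5 closest to Gad1 were Tfap2a (0.97), Tbx3 (0.95), Slc32a1 (0.95) and Necab1 (0.94). Tfap2a, an amacrine transcription factor, was at 287 ± 42.0 CPM in TH- cells, 128 ± 15.6 in the GCL and 35.0 ± 7.35 in the BCL. Slc6a9 was closest to Lgr5 (0.93), Lamp5 (0.91), Fgd6 (0.88), Slc32a1 (0.85) and Zfp385c (0.85). Lgr5, a receptor for R-spondins, was at 203 ± 104 CPM in TH- and 164 ± 40.2 in TH+ cells. Like Slc6a9, it had a higher mean in the ONL (35.6 ± 11.6) than in the GCL (15.4 ± 2.90). So did Lamp5 and Fgd6, whereas the means of Slc32a1 (23.8 against 93.4) and Zfp385c (5.86 against 30.5) were lower in the ONL. Slc6a11 was closest to Cacna1g (0.96), Runx1t1 (0.95), Hlf (0.95), Prkcb (0.94) and Zeb2 (0.94). Cacna1g, a T-type calcium channel, was at 349 ± 50.4 CPM in TH-, 294 ± 70.3 in the BCL, 274 ± 28.1 in the GCL, 165 ± 46.5 in TH+ and 37.0 ± 23.7 in the ONL, the same order as Slc6a11 in all 5 groups.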

How the data were processed

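Light-Seq UMIs were counted in 12 layer libraries (4 sections) and 10 amacrine libraries (5 sections). The deposited counts are whole UMIs per gene, not normalized. To make them, the authors took UMIs and barcodes with UMI-tools 1.1.1, mapped with STAR 2.7.9a to GENCODE mouse genes on GRCm39, assigned reads to exons with featureCounts at its defaults, collapsed UMIs per gene and removed 2 ribosomal RNA genes. Gene lengths are those the authors deposited with their mouse table. Samples of mixed cell culture and the pooled layer library were not used here.

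CPM is per 1000000 of the column total. Tests were quasi-likelihood F-tests of edgeR 4.0.16 (R 4.3.3) with TMM scaling, a low-count filter (at least 3 UMIs in enough libraries, 10 over all), and Benjamini-Hochberg adjustment over all tested genes at 0.05, in 1 fit of 12 layer libraries and 1 of 10 amacrine libraries, without a block. The study used DESeq2, an alternative here (1.42.0). The scripts were tested on simulated data. The standard error is the log2 fold change divided by the square root of F. Common biological variation was 9.17% and 16.0%.

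The libraries of a section share that section by their labels, which pairs them. Residuals of same-section libraries correlated at 0.01 to 0.05 in the layers and 0.03 to 0.26 in amacrine cells. No 2 replicates agreed within counting noise (chi-square per degree of freedom at least 1.15). Exon overlaps were computed on GENCODE vM39 annotation, a later release than the counts used, and upstream sequences came from RefSeq on GRCm38.p6. Alternatives were DESeq2, other size factors, other filters, a replicate block, leaving out mitochondrial genes and leaving out each section. Members were all named; pathway genes, markers and the 5 most alike genes of Gad1, Slc6a9 and Slc6a11 (prior count 2) could be. The members and lists were chosen with earlier results of these data known. Some genes of the pathway list, with an alternative that needs them, are not reported here.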

Additional observations from a re-analysis of the deposited data

Results flagged for a closer look

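Over 45 groups of 4 or 5 sections (each of the 8 genes and the neuronal share in each group), 2 had a section far from the others by Dixon's criterion, and chance gives about 1 in 20. The neuronal share of the carrier UMIs was 9.80% in BCL section 4 (20 of 204 UMIs, exact 95% interval 6.09 to 14.7%), against 7.87 to 8.11% in the other 3 sections. It was 57.9% in TH- section 5 (202 of 349 UMIs, exact interval 52.5 to 63.1%), against 45.3 to 48.4% in the other 4. That TH- library also held the highest Gad1, Gad2, Slc32a1, Slc6a9 and Slc6a5 values of its group, and its Slc6a11 value of 1029 CPM was within the range of the others. The intervals cover counting error only.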

How the results depend on the processing

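Of 42 called differences of the 8 genes and of 10 pathway genes (Slc6a6, Slc6a8, Glul, Aldh5a1, Glud1, Slc38a1, Slc38a3, Gldc, Shmt2 and Psat1), 36 kept direction and call under every alternative run. The replicate block and the analysis without a low-count filter each gave 2 called genes among the 7 in TH+ against TH- cells in place of 1, and 1 in place of 0 among the pathway genes. Leaving out a section gave 0 to 1 pathway genes there, the 1 without section 2. Over all genes the TH+ comparison gave 148 calls (96 higher, 52 lower) with the replicate block and 66 (34 higher, 32 lower) with no filter, beside 50 (45 higher, 5 lower), and 73 without section 2, 29 without section 3 and 31 without section 5. Apart from Gad1, Glul and Clu, the block changed no call of a gene whose test is given, the rod genes aside. Between ONL and BCL, DESeq2 called 1390 genes in favour of the former and 2064 of the latter, beside 2096 and 2056 with edgeR.

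Differences between ONL and BCL that were near 0 turned sign. Gad1 was at -0.061 with DESeq2, -0.052 with its size factors and -0.020 without mitochondrial genes, and ranged from -0.47 to 0.32 over left-out sections. Slc32a1 was at -0.015 and -0.022 with the first 2 and ranged from -0.031 to 0.32, and Slc6a5 from -1.36 to 0.37. Slc6a9 in BCL against GCL ranged from -0.42 to 0.0099, and Gad2 in TH+ against TH- from -0.56 to 0.055. None of these was a call.

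The neuronal share moved by more than its SD without Slc6a9 (ONL 18.4%, BCL 4.23%, GCL 15.2%, TH- 29.0%, TH+ 37.9%). Per gene length it moved in the BCL (10.3%) and the GCL (25.7%). Depth limits Slc6a13, Slc6a5 and every TH+ value: a TH+ library needs 34.3 to 99.0 CPM to exceed 3 UMIs. The cause of the changed calls was not tested.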
